A study of Mus musculus with 9 samples.

Results

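Cxcl9, Cxcl10, Cxcl11 and Cxcl16 are chemokine genes whose products attract activated T cells, and their signal was compared among primary tumours of 3 mouse mammary carcinoma lines. The members were all probe sets that the array annotation gives to 1 of these genes alone, which were 7 of the 45101 probe sets on the array and covered 4 of 18193 measured genes. Cxcl9, Cxcl11 and Cxcl16 had a pair of probe sets each and Cxcl10 had 1. Where a gene had more than 1 probe set, the one with the brightest average signal across the 9 arrays stands for it.

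The lines 67NR, 66cl4 and 4T1 come from a single mammary tumour of a BALB/c mouse and differ in how far they spread. 67NR tumours stay at the injection site, 66cl4 reaches the lung and 4T1 reaches further organs. Female BALB/c mice of 7 to 9 weeks received 1000000 viable cells labelled 67NR/CMVLUC, 66cl4/CMVLUC or 4T1/CMVLUC, 3 mice per line, and the primary tumours were taken on day 15 and sampled by laser capture. Each group is 1 cell line, all groups share the CMVLUC label and the strain, and there were no mice without tumours among the arrays. BALB/c mice have a working immune system, so the captured areas can hold host leukocytes, vessels and fibroblasts beside tumour cells. In such bulk samples, fewer cells of a type and less RNA per cell cannot be told apart.

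Chemokines are small secreted proteins that guide migrating leukocytes through G-protein-coupled receptors. Cxcl9, Cxcl10 and Cxcl11 are ligands of Cxcr3, a receptor of activated T cells and natural killer (NK) cells, and they are known as genes that interferon-gamma induces in macrophages, dendritic cells, endothelium and tumour cells. Cxcl16 is made as a membrane protein that Adam10 and Adam17 can shed, and its receptor is Cxcr6. In tumours, these ligands are best known for drawing effector T cells into the tissue.

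Cxcl9, Cxcl10 and Cxcl11 lie in a cluster on mouse chromosome 5, with Art3 between Cxcl9 and Cxcl10, and Cxcl16 lies on chromosome 11. RefSeq lists Cxcl11 as a transcribed pseudogene in its C57BL/6J assembly, while the tumours grew in BALB/c mice. RefSeq promoter sequences matched Cxcl9 and Cxcl10, and they are printed because these genes respond to interferon and NF-kappaB in general and because both moved between the lines. Each stretch is 250 bases upstream of the gene's start in build GRCm38.p6, on the minus strand, at chr5:92328080-92328329 for Cxcl9 and chr5:92348890-92349139 for Cxcl10, with the matched motifs in capitals.
Cxcl9: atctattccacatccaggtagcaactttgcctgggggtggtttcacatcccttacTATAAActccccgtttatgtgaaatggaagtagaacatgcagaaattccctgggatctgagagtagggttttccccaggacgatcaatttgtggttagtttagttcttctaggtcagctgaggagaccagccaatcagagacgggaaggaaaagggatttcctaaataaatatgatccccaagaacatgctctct
Cxcl10: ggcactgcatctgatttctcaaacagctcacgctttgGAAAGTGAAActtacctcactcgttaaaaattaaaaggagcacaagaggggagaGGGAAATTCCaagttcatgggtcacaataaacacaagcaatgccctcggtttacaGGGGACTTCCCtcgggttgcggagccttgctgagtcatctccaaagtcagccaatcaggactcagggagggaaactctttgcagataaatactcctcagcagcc
The letters searched on both strands were the interferon-stimulated response element (GAAA and GAAA with 2 bases of any kind between them), the interferon-gamma-activated site TTCNNNGAA, the kappa-B motif GGGRNNYYCC and the letters TATAAA. Here N is any base, R is A or G and Y is C or T. The Cxcl10 stretch held 1 response element, GAAAGTGAAA, from base -213 to -204 counted from the start, and 3 kappa-B matches, of which 2 overlap. The Cxcl9 stretch held TATAAA from base -195 to -190 and none of the other letters searched. The search used fixed letters, so it cannot show that the Cxcl9 stretch lacks an interferon-gamma element of another form. It also does not show that TATAAA at this place is a core promoter box. Among 32851 promoters of this length, 2.98% held the response element, 7.02% the interferon-gamma site, 7.25% the kappa-B motif and 12.4% TATAAA. These matches describe letters in the reference window and no binding was measured.

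All 4 chemokine genes were lowest in 66cl4 tumours. Against 67NR, the 66cl4 signal was 27.2-fold lower for Cxcl9, 5.88-fold lower for Cxcl11, 5.48-fold lower for Cxcl10 and 2.85-fold lower for Cxcl16. Cxcl10 and Cxcl11 were also higher in 4T1 than in 67NR, 2.95-fold and 9.84-fold, whereas for Cxcl9 and Cxcl16 this comparison did not pass the test. Signals are deposited log2 values, and a difference of 1 is a doubling. A gene was called at an adjusted p under 0.05 in a limma fit over 13409 genes.

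Cxcl9, first known as the monokine induced by interferon-gamma, had log2 signals of 11.50, 11.56 and 10.75 in the 3 67NR tumours, 6.27, 5.64 and 7.61 in the 66cl4 tumours and 11.42, 12.51 and 11.87 in the 4T1 tumours. Every 66cl4 tumour lay below every other tumour, and the 67NR and 4T1 values overlapped. The 66cl4 values were also the most spread of any member in any line, with a mean of 6.50 ± 1.01 (SD, n = 3). The difference of 66cl4 from 67NR was -4.76 ± 0.46 (SE, adjusted p = 5.598e-05), the 14th lowest among the 13409 genes. 4T1 exceeded 66cl4 by 5.43 ± 0.46 (adjusted p = 1.659e-05), or 43.1-fold. 4T1 differed from 67NR by 0.66 ± 0.46, with a 95% confidence interval of -0.38 to 1.71 (adjusted p = 0.2932).

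The other Cxcl9 probe set gave smaller differences in the same order. It read 8.44, 8.29 and 7.90 in 67NR, 5.49, 5.49 and 5.83 in 66cl4 and 8.08, 8.63 and 8.41 in 4T1. Its differences were -2.61 for 66cl4 against 67NR (adjusted p = 8.221e-06), 2.77 for 4T1 against 66cl4 (adjusted p = 3.03e-06) and 0.16 for 4T1 against 67NR (adjusted p = 0.5482), in a fit of 23987 probe sets. The direction and calls of Cxcl9 therefore held in both probe sets, while the size of the fold depended on which was read.

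Cxcl10, the interferon-inducible protein of 10 kDa in its older name, read 7.82, 8.69 and 8.38 in 67NR, 5.27, 6.05 and 6.21 in 66cl4 and 9.61, 10.11 and 9.84 in 4T1. The 3 lines did not overlap and stood in the order 4T1, 67NR, 66cl4. 66cl4 lay below 67NR with a difference of -2.45 ± 0.28 (adjusted p = 0.0001357), 4T1 was higher than 67NR by 1.56 ± 0.28 (adjusted p = 0.00162) and higher than 66cl4 by 4.01 ± 0.28 (adjusted p = 4.157e-06), which is 16.1-fold.

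Cxcl11, the ligand that binds Cxcr3 most tightly and also binds the scavenging receptor Ackr3, read 8.39, 8.27 and 7.77 in 67NR, 6.09, 5.18 and 5.51 in 66cl4 and 11.19, 11.88 and 11.27 in 4T1. The order was again 4T1, 67NR, 66cl4 with no overlap. 66cl4 lay below 67NR with a difference of -2.55 ± 0.27 (adjusted p = 8.577e-05). 4T1 exceeded 67NR by 3.30 ± 0.27 (adjusted p = 1.19e-05) and 66cl4 by 5.85 ± 0.27 (adjusted p = 2.662e-07), or 57.8-fold, the 16th highest difference of the 13409. Its other probe set, at 3.47 to 4.89, was not above background on any array and was not tested, so the Cxcl11 values rest on 1 probe set.

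Cxcl16, the transmembrane ligand of Cxcr6, read 10.06, 9.59 and 9.52 in 67NR, 7.88, 8.34 and 8.41 in 66cl4 and 10.10, 10.32 and 9.91 in 4T1. The 66cl4 tumours lay below all others, and 67NR and 4T1 overlapped. 66cl4 lay below 67NR with a difference of -1.51 ± 0.19 (adjusted p = 0.0002421), and 4T1 exceeded 66cl4 by 1.90 ± 0.19 (adjusted p = 4.342e-05), or 3.73-fold. 4T1 against 67NR gave 0.39 ± 0.19, with an interval of -0.04 to 0.81 (adjusted p = 0.1351); without the first 67NR mouse it was 0.55 and passed (adjusted p = 0.04582). The other probe set read 9.42, 8.97 and 8.77 in 67NR, 6.58, 7.58 and 7.46 in 66cl4 and 9.32, 9.84 and 9.42 in 4T1, with differences of -1.85, 0.48 and 2.32 for 66cl4 against 67NR, 4T1 against 67NR and 4T1 against 66cl4. The same comparisons were called as with the brighter probe set.

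**Figure D1:**
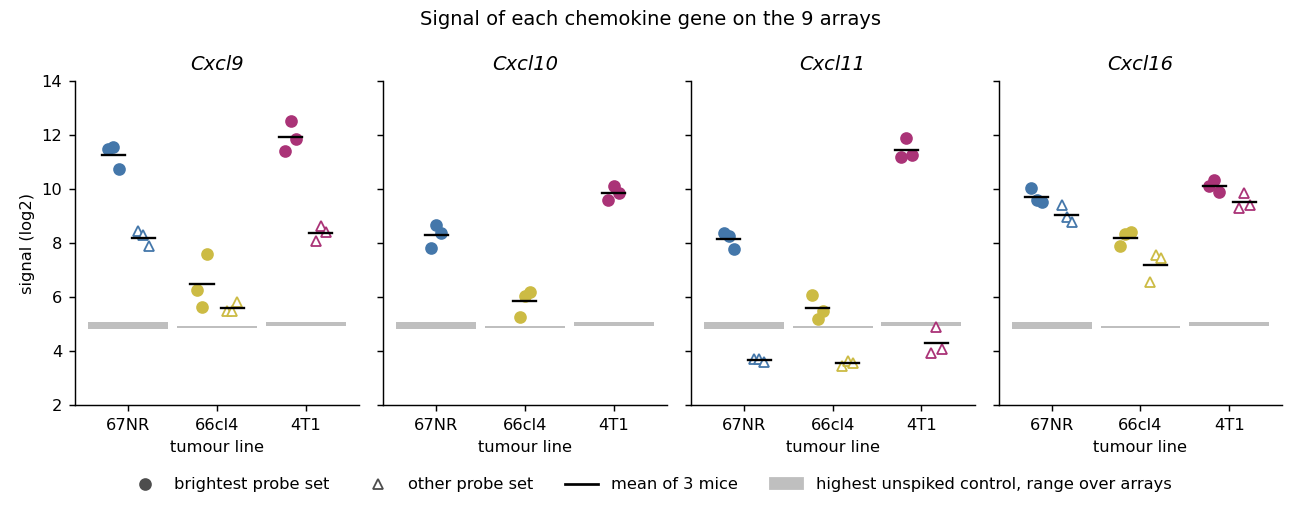
Log2 signal (y axis) of each chemokine gene by tumour line (x axis). Filled points are the brightest probe set on each array, open triangles the other probe set where there is one, lines the means of 3 mice, and the grey band the range of the highest unspiked bacterial control. The 66cl4 points of the brightest probe sets lie below all 67NR and 4T1 points in each panel, and the second Cxcl11 probe set does not exceed the highest control of its own array on any array.

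All brightest probe sets stood above background, the highest of 27 bacterial control probe sets per array (4.83 to 5.08), on every array. The lowest 66cl4 values of Cxcl10 (5.27) and Cxcl11 (5.18) lay close to it.

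The counts of called members were high against the whole table in both comparisons with 66cl4. In 66cl4 against 67NR, 4 of 4 were called lower, beside 16.0% of all genes tested (20.0% were called higher). In 4T1 against 66cl4, 4 of 4 were called higher, beside 17.9% (23.4% lower). In 4T1 against 67NR, 2 of 4 were called higher, beside 19.4% (20.5% lower). The list counts given below are to be read beside these same shares. All 4 passed the F-test among the lines, as did 56.6% of genes. Having all 3 66cl4 values below all 6 others, true of all 4 members, held for 10.5% of genes, and being called lower in 66cl4 than in both other lines, also true of all 4, held for 7.00%. The order 4T1, 67NR, 66cl4 with every pair called held for Cxcl10 and Cxcl11 and for 1.70% of genes.

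**Figure D2:**
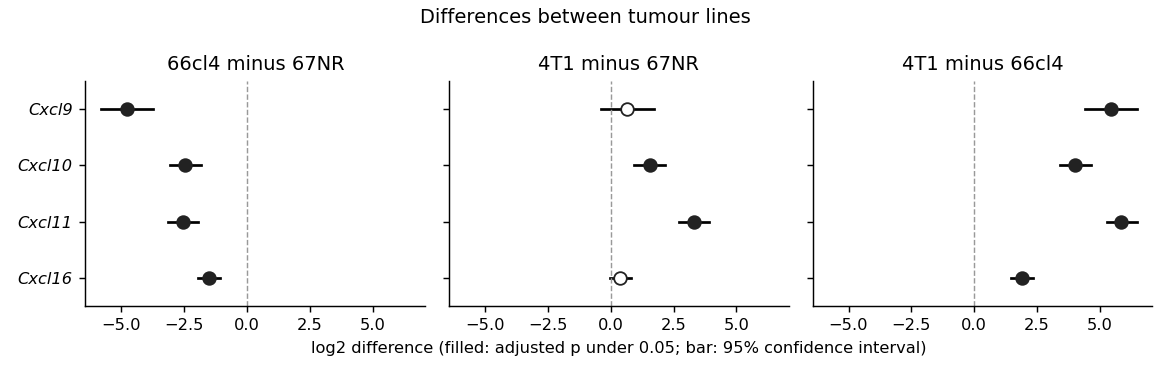
Log2 difference (x axis) of each chemokine gene (y axis) for the 3 comparisons of lines, with 95% confidence intervals as bars, filled where the adjusted p was under 0.05. All 4 genes are lower in 66cl4 than in 67NR and higher in 4T1 than in 66cl4, and Cxcl9 and Cxcl16 have intervals across 0 in 4T1 minus 67NR.

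Members did not move by equal amounts. For each of the 6 pairs, an exact permutation test over the 280 ways to split 9 arrays into 3 sets of 3 asked whether their per-array difference varied among the lines; the smallest p it can give is 0.0036. Cxcl9 and Cxcl10 differed in pattern (adjusted p = 0.01429), the 66cl4 minus 67NR difference of Cxcl9 being -2.31 beyond that of Cxcl10. This gap belongs to the brighter Cxcl9 probe set, since the other one gave -2.61 where Cxcl10 gave -2.45; the pattern still differed with it (adjusted p = 0.03571). The patterns of Cxcl10 and Cxcl16 (adjusted p = 0.01429), Cxcl11 and Cxcl16 (0.01429) and Cxcl9 and Cxcl16 (0.02679) also differed, Cxcl16 having the smallest differences of the pair against 66cl4 each time. Cxcl9 and Cxcl11 (adjusted p = 0.03214) differed mainly in where 67NR stood, since 4T1 minus 66cl4 differed by only -0.42 between them and 4T1 minus 67NR by -2.63. Cxcl10 and Cxcl11 (adjusted p = 0.03214) had nearly the same 66cl4 minus 67NR difference, 0.10 apart, and 4T1 minus 67NR differences that were -1.74 apart. Both Cxcl11 pairs with Cxcr3 ligands missed the threshold without single mice, with adjusted p up to 0.06786 for Cxcl9 and 0.125 for Cxcl10, and Cxcl10 against Cxcl16 missed it without the second 66cl4 mouse (0.05143).

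The receptors were read next. Cxcr3, the receptor of Cxcl9, Cxcl10 and Cxcl11, read 7.35, 7.17 and 7.42 in 67NR, 6.86, 6.22 and 6.66 in 66cl4 and 8.19, 8.67 and 8.16 in 4T1. The lines did not overlap, and the order was the one seen for Cxcl10 and Cxcl11. The differences were -0.74 for 66cl4 against 67NR (adjusted p = 0.01249), 1.02 for 4T1 against 67NR (adjusted p = 0.001833) and 1.76 for 4T1 against 66cl4 (adjusted p = 6.78e-05).

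Cxcr6, the receptor of Cxcl16, read 7.84, 6.31 and 6.76 in 67NR, 4.16, 4.86 and 5.44 in 66cl4 and 6.52, 7.82 and 6.53 in 4T1. It was above background in 1 of the 3 66cl4 tumours. It was lower in 66cl4 than in 67NR with a difference of -2.15 (adjusted p = 0.006196) and higher in 4T1 than in 66cl4 by 2.14 (adjusted p = 0.005452), and 4T1 minus 67NR was -0.02 (adjusted p = 0.9834).

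Ackr3, which takes up Cxcl11 and Cxcl12 without classical signalling, was highest in 67NR at 9.57 ± 0.43 (SD, n = 3), with -1.18 in 66cl4 (adjusted p = 0.0009784) and -0.75 in 4T1 (adjusted p = 0.01027). Adam10, a sheddase of Cxcl16, was lower in 66cl4 than in 67NR with a difference of -0.54 (adjusted p = 0.01064) and higher in 4T1 than in 66cl4 by 0.54 (adjusted p = 0.009228), and Adam17 was called in none of the comparisons. Dpp4, a peptidase that trims the Cxcr3 ligands, was lower in 4T1 than in 67NR with a difference of -0.46 (adjusted p = 0.03027), a call lost without the first or the third mouse of either line (adjusted p up to 0.1102) and with the replicate block (0.05396). With scan file number as a covariate it was -0.23 (adjusted p = 0.5336) and with the hybridization controls -0.12 (adjusted p = 0.7677). Dpp4 lay near background, averaging 5.39 in 67NR and standing above background in 1 of the 3 4T1 tumours. Of the 10 receptor and ligand-processing genes, 4 fell in 66cl4 against 67NR, 3 rose and 2 fell in 4T1 against 67NR, and 5 rose in 4T1 against 66cl4. With scan file number as a covariate, 2 rather than 4 fell in 66cl4, and 0 rose and 0 fell in 4T1 against 67NR.

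The transcript of interferon-gamma, the main inducer of the Cxcr3 ligands, lay near background. Ifng read 6.08, 5.34 and 5.42 in 67NR, 3.59, 3.78 and 3.56 in 66cl4 and 5.35, 6.67 and 6.57 in 4T1. All 3 66cl4 values were at background, so 67NR was at least 1.63-fold higher (adjusted p = 0.001177) and 4T1 at least 2.44-fold higher (adjusted p = 0.0002061). Such a bound divides the signal of the brighter line by the average of the top control on each 66cl4 array. 4T1 minus 67NR was 0.58 (adjusted p = 0.1887), and without the first 4T1 mouse it was 1.00 and passed (adjusted p = 0.004851).

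Of the receptor chains, Ifngr1 was highest in 67NR, with -0.42 in 66cl4 (adjusted p = 0.03378) and -0.93 in 4T1 (adjusted p = 0.0004588). Ifngr2 was called in 4T1 against 67NR alone, at 0.50 (adjusted p = 0.04767). The 66cl4 call of Ifngr1 was lost on leaving out any single 67NR mouse or the first or second 66cl4 mouse (adjusted p up to 0.1148), with scan file number (0.1778) and with the hybridization controls (0.1516). The Ifngr2 call was lost on leaving out a single mouse, for 6 of the 9 mice, with no filter, with quantile normalization and with the 2 lines alone (adjusted p up to 0.1403) and with scan file number (0.1767). Jak2, the kinase bound to Ifngr2, read 9.14, 8.97 and 8.64 in 67NR, 8.30, 8.38 and 8.36 in 66cl4 and 10.74, 11.60 and 11.92 in 4T1. It was higher in 4T1 than in 67NR by 2.50 (adjusted p = 5.936e-05), while 66cl4 minus 67NR was -0.57 (adjusted p = 0.1157, and 0.0132 without the first 4T1 mouse).

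Irf1, the transcription factor that relays interferon-gamma to many of its targets, read 10.77, 10.71 and 10.49 in 67NR, 9.71, 9.57 and 9.77 in 66cl4 and 11.48, 11.61 and 11.76 in 4T1. It was lower in 66cl4 with a difference of -0.98 (adjusted p = 0.0002058) and higher in 4T1 by 0.96 (adjusted p = 0.0001807) against 67NR, with no overlap of lines. Irf7, a factor of the type I interferon response, was lower in 66cl4 with a difference of -1.54 (adjusted p = 0.001321) and did not pass in 4T1 against 67NR, at 0.09. Ifih1, a sensor of double-stranded RNA, was called only for 4T1, at 1.17 over 67NR (adjusted p = 8.134e-05) and 1.15 over 66cl4 (adjusted p = 9.016e-05).

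On the NF-kappaB side, the differences of Tnf and Rela were smaller. Tnf was higher in 4T1 than in 67NR by 0.44 (adjusted p = 0.007169) and than in 66cl4 by 0.40 (adjusted p = 0.01092), and Rela, an NF-kappaB subunit, by 0.33 (adjusted p = 0.01867) and 0.29 (adjusted p = 0.03067). For 66cl4 minus 67NR, Tnf and Rela both gave 0.04 and were not called. Nfkb2 and Relb, also of the NF-kappaB genes listed, were higher in 66cl4 than in 67NR, where the chemokines were lower. The rise was 1.74-fold for Nfkb2 (adjusted p = 0.001774) and 1.37-fold for Relb (adjusted p = 0.01029), without overlap. In 4T1, both genes also lay above all 67NR values. Nfkbia was not called in 66cl4 against 67NR, at 0.01. The Rela calls were lost on leaving out single mice, with adjusted p up to 0.07147 against 67NR (without the second or the third 67NR or the second 4T1 mouse) and 0.1075 against 66cl4 (without any 66cl4 or the second 4T1 mouse). Of 36 tested genes of interferon and NF-kappaB induction, 4 rose and 10 fell in 66cl4 against 67NR, 14 rose and 6 fell in 4T1 against 67NR, and 14 rose and 5 fell in 4T1 against 66cl4. Without the second 67NR or the first 66cl4 mouse, 6 rather than 10 fell in 66cl4. With scan file number as a covariate, 4 fell in 66cl4, and 9 rose and 2 fell in 4T1 against 67NR; with the hybridization controls, 2 fell in 4T1 against each other line. Eomes, a T-box factor of effector T and NK cells, went the other way from the chemokines, with 1.19 in 66cl4 (adjusted p = 3.856e-05) and -0.87 in 4T1 (adjusted p = 0.0001977) against 67NR. Tbx21, another T-box factor of this list, did not share this order. It was at background in all 66cl4 tumours, at least 1.39-fold below 67NR (adjusted p = 0.006959), and averaged 5.38 in 67NR and 4.97 in 4T1.

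**Figure D3:**
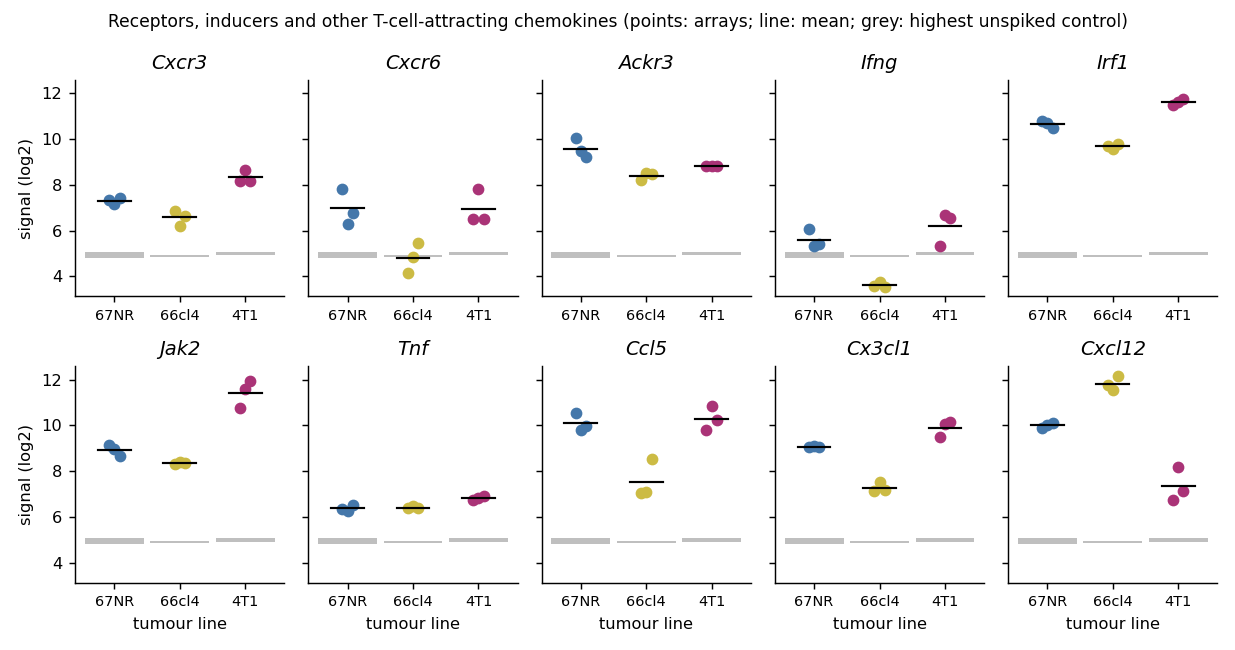
Log2 signal (y axis) by tumour line (x axis) of receptors, inducers and other chemokines. Points are arrays, lines the means of 3 mice and the grey band the range of the highest unspiked control. Ifng lies under the band in all 66cl4 tumours, Irf1 and Cxcr3 stand in the order 4T1, 67NR, 66cl4, and Cxcl12 is highest in 66cl4.

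Other target genes of interferon-gamma moved with the chemokines. Of 24 tested, none of them members, 19 fell and 0 rose in 66cl4 against 67NR, 19 rose and 1 fell in 4T1 against 67NR, and 22 rose and 0 fell in 4T1 against 66cl4. Their median differences were -1.37, 1.21 and 3.17, beside 0.01, -0.03 and -0.03 over all genes tested. The immunoproteasome subunit Psmb9 gave -1.85 in 66cl4 (adjusted p = 4.886e-06) and 1.58 in 4T1 (adjusted p = 8.634e-06) against 67NR. The peptide transporter subunit Tap2 gave -0.91 (adjusted p = 7.032e-05) and 1.27 (adjusted p = 6.171e-06). The immunity-related GTPase Iigp1 had the Cxcl9 form, -3.95 in 66cl4 (adjusted p = 1.684e-06) and 0.37 in 4T1 (adjusted p = 0.1833). These lists, like the members, were drawn up with earlier results of these arrays known, so their counts are no independent evidence of a direction.

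Other chemokines that draw T cells went in both directions. Of 11 tested, 5 fell and 1 rose in 66cl4 against 67NR, 2 fell and 1 rose in 4T1 against 67NR, and 3 rose and 1 fell in 4T1 against 66cl4. With either covariate (scan file number or hybridization controls) 0 rose and 1 fell in 4T1 against 67NR, and with scan file number 3 fell in 66cl4. Over all genes tested, 20.5% fell and 19.4% rose in 4T1 against 67NR, so the counts of that comparison were not above these shares. Ccl5, a chemokine made by T cells and other leukocytes, read 10.55, 9.79 and 9.95 in 67NR, 7.05, 7.08 and 8.51 in 66cl4 and 9.79, 10.83 and 10.24 in 4T1. It was lower in 66cl4 with a difference of -2.55 against 67NR (adjusted p = 0.0009308), with the third 66cl4 mouse the highest of its line, as for Cxcl9.

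Cx3cl1, like Cxcl16 a membrane-bound chemokine, was lower in 66cl4 with a difference of -1.77 (adjusted p = 6.785e-05) and higher in 4T1 by 0.84 (adjusted p = 0.004227) against 67NR. Cxcl12, a homeostatic chemokine of stromal cells, ran against the 4 genes, reading 9.89, 10.01 and 10.11 in 67NR, 11.74, 11.53 and 12.16 in 66cl4 and 6.73, 8.19 and 7.15 in 4T1. It was higher in 66cl4 than in 67NR by 1.81 (adjusted p = 0.001703) and lower in 4T1 than in 67NR with a difference of -2.65 (adjusted p = 0.000147).

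Markers of cells that carry the receptors or make the ligands also differed between the lines. Of 23 T and NK cell markers tested, 17 fell in 66cl4 and 6 fell in 4T1 against 67NR, none rising in either, and 9 rose and 2 fell in 4T1 against 66cl4. Without the third 66cl4 mouse 2 rose in 66cl4 and 1 in 4T1 against 67NR, and without the third 4T1 mouse 1 rose in 4T1. Their summed linear signal was 4188 to 5903 in 67NR, 2297 to 4278 in 66cl4 and 3167 to 4250 in 4T1. Foxp3 was at background in all lines, Pdcd1 in 66cl4 and Cd28 in 4T1. Cd8a, the co-receptor of cytotoxic T cells, was lower in 66cl4 with a difference of -0.96 (adjusted p = 0.01287) and Cd3g, a chain of the T-cell receptor complex, with a difference of -2.57 (adjusted p = 0.0005792). For 4T1 against 67NR they gave 0.33 and -0.40 and were not called. Cd3g was above background in 2 of the 3 66cl4 tumours. Cd4, the co-receptor of helper T cells, was lower than in 67NR both in 66cl4, with a difference of -1.36 (adjusted p = 0.0006452), and in 4T1, with a difference of -1.29 (adjusted p = 0.0007054). Other markers of this list had other orders. Prf1 averaged 7.31 in 67NR, 8.38 ± 1.22 (SD, n = 3) in 66cl4 and 6.43 in 4T1. Gzmb averaged 8.75, 9.57 ± 1.21 and 9.73, and neither gene was called higher in 66cl4 than in 67NR in the main fit. Ncr1 was lowest in 4T1, at 6.65, 6.04 and 4.80.

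As a set, macrophage and monocyte markers did not follow the chemokines. Of 17 tested, 6 rose and 1 fell in 66cl4 against 67NR, and 11 fell in 4T1 against 67NR. The 1 that fell in 66cl4 was Cx3cr1, which averaged 9.84 in 67NR, 7.10 in 66cl4 and 8.06 in 4T1 and was thus lowest in 66cl4. Without the second 67NR or the second 66cl4 mouse, 3 rather than 6 rose. Their summed linear signal was 47954 to 51786 in 67NR, 54608 to 67998 in 66cl4 and 22867 to 26815 in 4T1, so that the line with the highest Cxcl10 and Cxcl11 signal had the lowest macrophage sum. Csf1r, the receptor of macrophage growth factor, was -1.25 in 4T1 (adjusted p = 0.0002995) and -0.13 in 66cl4 (adjusted p = 0.597) against 67NR. Of 12 dendritic cell markers, 5 fell in 66cl4 and 5 in 4T1 against 67NR, and 2 rose and 3 fell in 4T1 against 66cl4. Itgax, an integrin of dendritic cells and some macrophages, was lower in 66cl4 with a difference of -2.21 (adjusted p = 0.0006394) and not called in 4T1, at 0.34. Other markers of the list were lowest in 4T1. Clec10a averaged 9.02 in 67NR, 9.02 in 66cl4 and 5.65 in 4T1, and Cd83 averaged 9.00, 8.36 and 6.51. With either covariate 3 rather than 5 of the dendritic cell markers fell in 66cl4, and in 4T1 0 fell with scan file number and 1 with the hybridization controls.

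Endothelial marker sums were highest in 67NR, at 4950 to 6099, beside 1527 to 1778 in 66cl4 and 2374 to 2569 in 4T1. Of 11 endothelial markers, 10 fell and 1 rose in 66cl4, and 9 fell and 1 rose in 4T1, against 67NR. With the hybridization controls as a covariate, 0 rose in either comparison. Vwf went against the sum, with its lowest mean in 67NR. Eng averaged 9.51 in 67NR, 8.42 in 66cl4 and 9.55 in 4T1. Fibroblast marker sums were 7400 to 9451 in 67NR, 10705 to 17230 in 66cl4 and 22280 to 51766 in 4T1. Of 10 fibroblast markers, 5 rose and 1 fell in 66cl4, and 7 rose and 2 fell in 4T1, against 67NR. With scan file number as a covariate, 3 rose and 0 fell in 66cl4, and 1 fell in 4T1. Pdgfra went against the sum, averaging 10.62 in 67NR, 10.85 in 66cl4 and 8.98 in 4T1. Epithelial tumour cell markers summed to 369 to 442 in 67NR, 7380 to 9484 in 66cl4 and 28260 to 33857 in 4T1, and Krt7, Cdh1 and Esrp1 were at background in all 67NR and 66cl4 tumours. Of the 8 epithelial markers, 1 was called higher in 66cl4 and 8 in 4T1 against 67NR. Krt8, which averaged 6.74 in 67NR, 13.01 in 66cl4 and 13.48 in 4T1, made up most of the 66cl4 sum. Neutrophil sums were 1354 to 2759, 886 to 2214 and 3630 to 5429, and B and plasma cell sums 3128 to 3841, 2802 to 3376 and 3039 to 7815, in the same order of lines. Xbp1, with mean log2 signals of 11.43, 11.43 and 11.57, made up most of the B and plasma cell sums in 67NR and 66cl4. In the main fit, 0 of the 6 tested B and plasma cell markers were called in 66cl4 or 4T1 against 67NR. The part of these cell types in the chemokine differences was not tested.

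**Figure D4:**
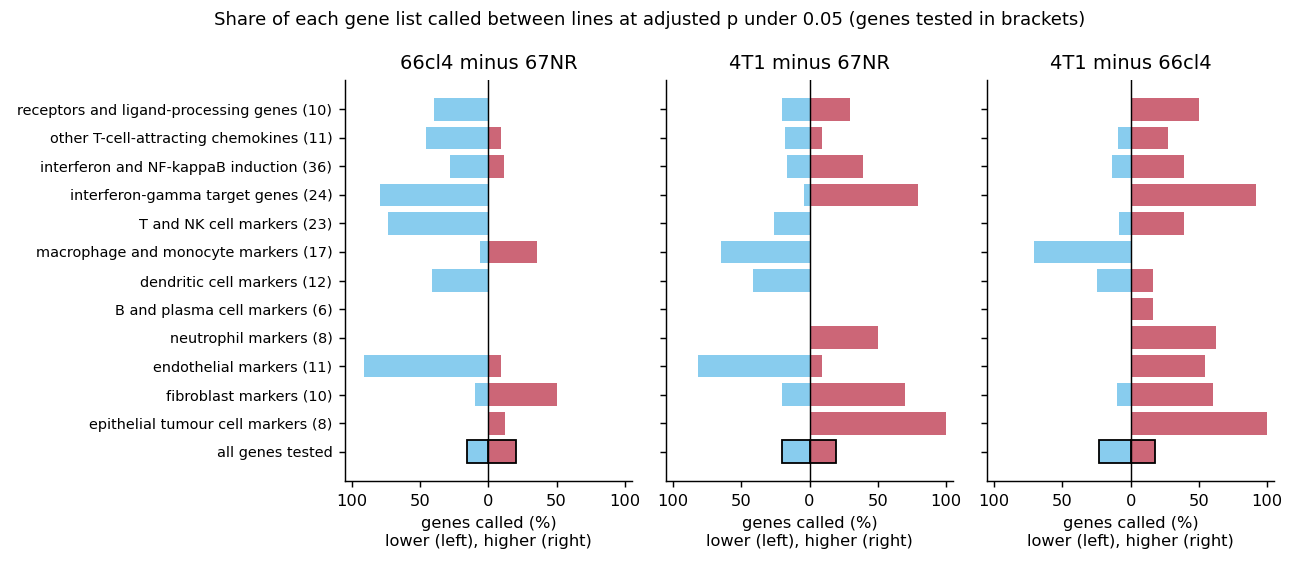
Percent of the tested genes of each list (y axis) called lower, to the left, or higher, to the right (x axis), in the 3 comparisons of lines, with all genes tested in the outlined bars. Interferon-gamma target genes are mostly lower in 66cl4 and mostly higher in 4T1 against 67NR, T and NK cell markers are lower in 66cl4, and macrophage markers are lower in 4T1.

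Signals of the hybridization controls, which are added in known amounts, averaged 11.16 ± 0.30 in 67NR, 10.86 ± 0.23 in 66cl4 and 10.46 ± 0.22 in 4T1 (SD, n = 3). With them as a covariate, the difference of 4T1 from 67NR grew to 2.43 for Cxcl10 and 1.29 for Cxcl9, the first called and the second not. Array medians ran from 5.51 to 5.58. Scan file number, which the labels give, also runs with the lines. With scan file number as a covariate, the differences of Cxcr3 from 67NR were -0.73 in 66cl4 (adjusted p = 0.0733) and 1.03 in 4T1 (adjusted p = 0.06615), that of Cxcr6 in 66cl4 was -1.40 (adjusted p = 0.1016), and that of Ackr3 in 4T1 was -0.68 (adjusted p = 0.1876), so none of these was called. With the hybridization controls, Cxcr3 in 66cl4 (-0.65, adjusted p = 0.05975), Ifngr1 in 4T1 (-0.68, adjusted p = 0.06689) and Adam10 in 4T1 against 66cl4 (0.45, adjusted p = 0.0802) were not called. Tnf, Rela, Cx3cl1 and Nlrc5 lost their call in 4T1 against 67NR with either covariate. Of the interferon-gamma target genes, 12 rather than 19 were called higher in 4T1 than in 67NR with either covariate, and of the macrophage markers 3 rather than 11 were called lower. How far scanning or hybridization and line each account for these values cannot be told apart.

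For each member, the 5 genes with the most similar pattern were found by the root mean square difference of gene-centred log2 values over the 9 arrays, where a smaller value is a closer match. Nearest to Cxcl9 were Iigp1 (0.598), Ubd (0.604), Rassf6 (0.722), Nlrc5 (0.847) and Apol7a (0.864). Ubd, a ubiquitin-like modifier, gave -4.38 in 66cl4 (adjusted p = 4.247e-05) and 0.34 in 4T1 (adjusted p = 0.549) against 67NR. Ubd was above background in 2 of the 3 66cl4 tumours. Rassf6 was at background in all 66cl4 tumours, at least 10.3-fold below each other line.

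Nearest to Cxcl10 were the class I gene H2-Q5 (0.394), the GTPase Irgm2 (0.425), Cyb561 (0.439), Psmb9 (0.465) and the GTPase Igtp (0.467). Nearest to Cxcl11 were Has2 (0.734), a synthase of hyaluronan, Mpzl2 (0.812), Cyb561 (0.850), Igtp (0.872) and Uox (0.877). Has2 was -1.35 in 66cl4 (adjusted p = 0.006526) and 3.64 in 4T1 (adjusted p = 1.44e-05) against 67NR, and it was above background in 2 of the 3 66cl4 tumours. Cyb561 and Igtp stood on the lists of both Cxcl10 and Cxcl11.

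Nearest to Cxcl16 were Zfp532 (0.186), Rab11fip2 (0.221), the class I gene H2-K1 (0.223), Eif5a2 (0.225) and Armcx4 (0.227). H2-K1 gave -1.34 in 66cl4 (adjusted p = 5.456e-05) and 0.53 in 4T1 (adjusted p = 0.008859) against 67NR. The members were less alike among themselves, from 0.938 for Cxcl10 and Cxcl16 and 1.002 for Cxcl10 and Cxcl11 to 1.716 for Cxcl11 and Cxcl16. Genes with large differences between lines have large values on this measure, so it does not rank members against one another.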

How the data were processed

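RNA of laser-captured primary tumours was measured on 9 single-colour Affymetrix arrays, 1 per mouse, 3 mice per line. The values are the log2 signals the authors deposited, 1 per probe set; the scale was read from the values, and the summarisation and normalization are not given in the sources used here. No further scaling was done, and the number of arrays limits the precision. The platform annotation gave 34945 probe sets 1 gene symbol, 932 several and 9224 none. A gene was tested when its brightest probe set exceeded the array's 40th percentile on 3 or more arrays (13409 genes kept). Models were fitted with limma 3.58.1 in R 4.3.3 over all 9 arrays without covariates (6 residual and 3.63 prior degrees of freedom), two-sided, with Benjamini-Hochberg adjustment over all genes tested, and checked on simulated data. An exact test of 3 mice against 3 cannot go below 0.1. A gene at or below the highest of 27 bacterial control probe sets on all 3 arrays of a line counted as at background there.

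The 4 members and 12 lists of 204 genes, 186 measured and 176 tested, were chosen with earlier results of these data known. Named genes are the members, up to 4 genes of each list with the smallest p per comparison, a fixed set of receptors and inducers, and the 5 genes of nearest pattern per member. Genes named by position are marked as such. Outside this rule, Nfkb2, Relb, Nfkbia, Tbx21, Prf1, Gzmb and Vwf were named to show list genes that did not move with those named beside them. Foxp3, Pdcd1 and Cd28 were named as list genes at background in a line. Alternatives covered filters, normalization, covariates, probe sets, a replicate block and leaving out each mouse.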

Additional observations from a re-analysis of the deposited data

How the results depend on the processing

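The 10 called member differences kept direction and call in all 184 refits, with adjusted p up to 0.007247, but 9 refits moved the fold by over 1.5 times. With the mean of probe sets, Cxcl11 gave -1.34, 1.97 and 3.30 (66cl4 minus 67NR, 4T1 minus 67NR, 4T1 minus 66cl4) and Cxcl9 -3.69 for 66cl4 minus 67NR and 4.10 for 4T1 minus 66cl4, since that mean takes in the dimmer probe set. With scan file number as a covariate, Cxcl10 gave 2.32 for 4T1 minus 67NR. The number of genes called in 4T1 against 67NR, 5347, fell to 2661 with scan file number and 2151 with hybridization controls as a covariate; both run with the lines, and the cause was not tested. Cxcl10 against Cxcl11 missed the threshold with the mean of probe sets (adjusted p = 0.06071).

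Leaving out 1 mouse gave 0.28 to 0.55 for Cxcl16 in 4T1 minus 67NR, called only without the first 67NR mouse. Adjusted exact permutation p ranged from 0.01607 to 0.06786 for Cxcl9 against Cxcl11 (lost without each 67NR mouse), 0.01607 to 0.125 for Cxcl10 against Cxcl11 (lost on leaving out a single mouse for 7 of the 9 mice, kept without the first 67NR and first 66cl4 mouse) and 0.01429 to 0.05143 for Cxcl10 against Cxcl16. Reading the other Cxcl9 or Cxcl16 probe set in these pairs, chosen after seeing the data, kept all 6 calls, with adjusted p up to 0.03571.

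Replicate numbers did not pair the mice: deviations of same-numbered arrays correlated at -0.115 to 0.159. With the replicate number as a block, adjusted p was 0.0001647 for Cxcl10 in 4T1 minus 67NR and 0.0003909 for Cxcl9 in 66cl4 minus 67NR, and no member's call changed. No called difference changed sign under any alternative run. Differences near 0 that were not called did change sign, such as Cxcr6 in 4T1 minus 67NR, -0.02, which was 0.42 without the first 67NR mouse.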

Other observations

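The genes next to the chemokine genes, chosen by their position in the RefSeq table and outside the rule for named genes, did not share one pattern. On chromosome 5, Art3, an ADP-ribosyltransferase gene between Cxcl9 and Cxcl10, was at background in all 66cl4 and 4T1 tumours, at least 1.86-fold and 1.78-fold lower than in 67NR (adjusted p = 0.000446 and 0.0005314). It thus did not follow Cxcl9 or Cxcl10 in 4T1. Nup54, a nuclear pore gene beyond Cxcl11, was higher in 4T1 than in 67NR by 0.60 (adjusted p = 0.005645) and not called in 66cl4, at 0.27. Scarb2, a lysosomal membrane protein gene further along, was lower in 4T1 with a difference of -0.96 (adjusted p = 0.0007049) and Naaa, on the other side of Cxcl9, lower in 66cl4 with a difference of -0.64 (adjusted p = 0.01791) and in 4T1 with a difference of -0.59 (adjusted p = 0.0245) against 67NR.

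On chromosome 11, Zmynd15, next to Cxcl16, had the Cxcl16 order, with means of 7.38 in 67NR, 5.45 in 66cl4 and 7.77 in 4T1. Zmynd15 was above background in 2 of the 3 66cl4 tumours. It was lower in 66cl4 than in 67NR with a difference of -1.93 (adjusted p = 0.001019) and higher in 4T1 than in 66cl4 by 2.32 (adjusted p = 0.0002829), and 4T1 minus 67NR was 0.39 (adjusted p = 0.3589). RefSeq lists Zmynd15 among the synonyms of Cxcl16, so whether its probe set reads a separate transcript was not settled here. Arrb2, on the other side of Cxcl16, was lower in 4T1 than in 67NR with a difference of -0.83 (adjusted p = 0.001383) and gave 0.07 in 66cl4 (adjusted p = 0.7513).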
